A study of Mus musculus with 8 samples.

Results

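The neutrophil granule and maturation genes are 33 genes that myeloid precursors switch on in turn as they become neutrophils. They were picked by symbol, 13 for proteins made at the progenitor and promyelocyte stages, called early below, and 20 for proteins made later, called later below. All 33 have a value among the 18860 genes of every library, and all 33 passed the filter on low values, a deposited value of at least 10 in at least 4 of the 8 libraries. The leukaemias came from C57BL/6 mice, and the sequenced cells were collected from the bone marrow once the animals were moribund. Both groups carried Vav1-Cre, which puts a recombinase under the Vav1 promoter of blood cells, together with short hairpins that knock down Nf1, which restrains Ras, and Mll3, a histone methyltransferase. The 11B3-deleted group (genotype 11B3fl/p53fl, n = 4 libraries) loses a stretch of chromosome 11 that holds Trp53 from 1 chromosome and the floxed Trp53 allele from the other. The p53-loss-only group (p53fl/fl, n = 4 libraries) loses Trp53 from both chromosomes and keeps the neighbouring genes. By the labels each cohort is made of lines, with no statement that each library had an animal of its own, and with no age given, so every p-value measures the spread between these libraries.

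A neutrophil precursor fills its granules in an order set by when each protein is made. Myeloperoxidase and the serine proteases of the azurophil granules are made first, in the promyelocyte; lactoferrin, cathelicidin and the other specific granule proteins follow in the myelocyte and metamyelocyte; gelatinase, the S100 proteins, the formyl peptide receptors and the other products of the mature cell come last. Transcription factors of the C/EBP family, PU.1 and RUNX1 are known regulators of these genes, and a block along this path is a defining trait of acute myeloid leukaemia. Much of the early programme is shared with monocyte precursors.

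The 4 promoters below are shown because their genes stood at opposite ends in 1 leukaemia. Ctsg (cathepsin G) and Chi3l3 (current symbol Chil3, the chitinase-like protein Ym1) had their highest values, and Ltf (lactoferrin) and S100a9 (a calcium-binding protein of the mature neutrophil) their lowest, in the same leukaemia, p53-loss-only replicate 3. Each is the 250 bases before the gene's start in RefSeq for the build GRCm38.p6, read 5′ to 3′ on the strand of the gene, at chr14:56102575-56102824 on the minus strand for Ctsg, chr3:106167565-106167814 on the minus strand for Chi3l3, chr9:111019042-111019291 on the plus strand for Ltf and chr3:90695722-90695971 on the minus strand for S100a9. Capitals mark matches to a C/EBP motif (TTNNGNAA, or TTNCNNAA on the other strand) or a PU.1 motif (GAGGAA, or TTCCTC on the other strand).
Ctsg: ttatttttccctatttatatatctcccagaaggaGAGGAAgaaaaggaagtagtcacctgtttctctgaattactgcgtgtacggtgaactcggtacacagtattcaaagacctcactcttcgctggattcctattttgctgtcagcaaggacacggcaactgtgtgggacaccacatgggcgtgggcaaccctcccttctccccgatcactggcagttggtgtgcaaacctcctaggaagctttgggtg
Chi3l3: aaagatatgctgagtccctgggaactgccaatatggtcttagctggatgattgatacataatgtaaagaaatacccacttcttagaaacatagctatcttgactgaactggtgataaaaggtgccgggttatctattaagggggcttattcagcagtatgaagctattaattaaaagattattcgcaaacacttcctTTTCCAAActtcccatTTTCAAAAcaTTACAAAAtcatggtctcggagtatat
Ltf: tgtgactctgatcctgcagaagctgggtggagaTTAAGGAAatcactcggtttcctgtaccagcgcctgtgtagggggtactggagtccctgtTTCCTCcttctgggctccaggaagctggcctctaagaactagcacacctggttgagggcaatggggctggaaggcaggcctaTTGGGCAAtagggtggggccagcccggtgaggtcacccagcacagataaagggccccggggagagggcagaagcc
S100a9: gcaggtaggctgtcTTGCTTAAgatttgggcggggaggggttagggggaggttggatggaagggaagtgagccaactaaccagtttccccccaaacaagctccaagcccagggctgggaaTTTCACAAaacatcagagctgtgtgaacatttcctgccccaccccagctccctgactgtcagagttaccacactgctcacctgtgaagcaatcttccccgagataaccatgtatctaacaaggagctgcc
The C/EBP motif matched 3 times in the Chi3l3 window, 2 times in Ltf, 2 times in S100a9 and 0 times in Ctsg, and the PU.1 motif matched 1 time in Ctsg and 1 time in Ltf. RefSeq promoters were found for 30 of the 33 genes, 13 early and 17 later. A C/EBP match was present in 5 of the 13 early and 15 of the 17 later promoters, 20 of 30 together, where 36.8% of 32851 promoters of the same length have one. A PU.1 match was present in 6 early and 9 later promoters, 15 of 30, against 23.3% of all promoters. A RUNX match (TGTGGT, or ACCACA on the other strand) was present in 5 early promoters and 1 later promoter, 6 of 30, against 14.0% of all promoters. A C/EBP match can contain the PU.1 letters, and in the 4 windows above no matches overlap. These are letter matches in a short window and say nothing of binding.

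Depth was 30591456 to 35719495 reads per 11B3-deleted library and 30502718 to 33365364 reads per p53-loss-only library. Values below are deposited values, that is, a read count scaled for library size with 1 added. Trp53 ran from 189.2 to 392.5 among 11B3-deleted and from 300.2 to 577.1 among p53-loss-only libraries (log2 difference -0.45, SE 0.32), which does not check the labels, since a floxed allele can still give RNA from the remaining exons. Of 69 other tested genes that lie between Sco1 and Alox12 on chromosome 11, 67 had a lower mean in the 11B3-deleted group (median log2 difference -0.93). Of the 33 granule and maturation genes, 1 (Mpo) lies on chromosome 11 and 0 lie inside that stretch. The myeloid factor gene Spi1, listed as Sfpi1, was at 6670 to 8200 in every library, and all 8 markers listed for the labelled myeloid cells were detected. Spi1 was the most even of them, while Cd33 ran from 280 to 9503, Fcgr3 from 980.7 to 19296 and Cd34 from 643.1 to 6801. Markers of other cells differed between libraries: the summed erythroid markers were at 144769 in 11B3-deleted replicate 1, most of it from Car1, and 2462 to 38323 in the other 7, and the summed B cell markers were at 48394 in 11B3-deleted replicate 3 and 377.7 to 2136 in the other 7. The RNA is from bulk marrow cells, in which fewer cells of a type and less RNA per cell cannot be told apart.

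Between the genotypes, 0 of the 33 genes differed past the threshold in limma with Benjamini-Hochberg adjustment over the 14679 genes tested (adjusted p = 0.996 to 0.999). The same test called 0.0136% of all tested genes. Neither edgeR's quasi-likelihood test nor DESeq2, both run on reads recovered from the deposited values, called any of the 33, while edgeR called 0.00681% and DESeq2 0.434% of the genes they tested. At an unadjusted p under 0.05, limma and edgeR each singled out Clec12a and DESeq2 singled out Clec12a and Mmp8, that is 1, 1 and 2 of 33, against 3.56%, 4.2% and 5.49% of all genes. In the direction of Clec12a, lower in 11B3-deleted libraries, limma gave an unadjusted p under 0.05 to 2.38% of all genes. The 2 groups did not overlap for 1 of the 33 genes, Clec12a, which was lower in 11B3-deleted libraries, where 2.15% of all tested genes separate in either direction and 1.23% in that direction.

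The mean log2 value was lower in the 11B3-deleted group for 21 genes and higher for 12, or 63.6% lower against 48.4% of all tested genes, with a median log2 difference of -0.16 against 0.01 over all tested genes. Among the early genes 7 were lower and 6 higher (median -0.01), and among the later genes 14 were lower and 6 higher (median -0.24). The lean moved with single libraries. Without 11B3-deleted replicate 1, the library with the high erythroid sum, 13 genes were lower, 19 higher and 1 at 0.00, with a median of 0.06. Without p53-loss-only replicate 1 the counts were 16 lower, 16 higher and 1 at 0.00, and without p53-loss-only replicate 2 they were 17 and 16. Without 11B3-deleted replicate 3, the library with the high B cell markers, 20 were lower and 11 higher. It was larger without 11B3-deleted replicate 4, with 25 lower and 8 higher and a median of -0.31, and 22 were lower and 11 higher without p53-loss-only replicate 3 or replicate 4. The 95% intervals lay inside a log2 difference of 1 in either direction for 4 genes (Prtn3, Plac8, Calr and Anxa1), and 7 intervals reached past 2.

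**Figure D1:**
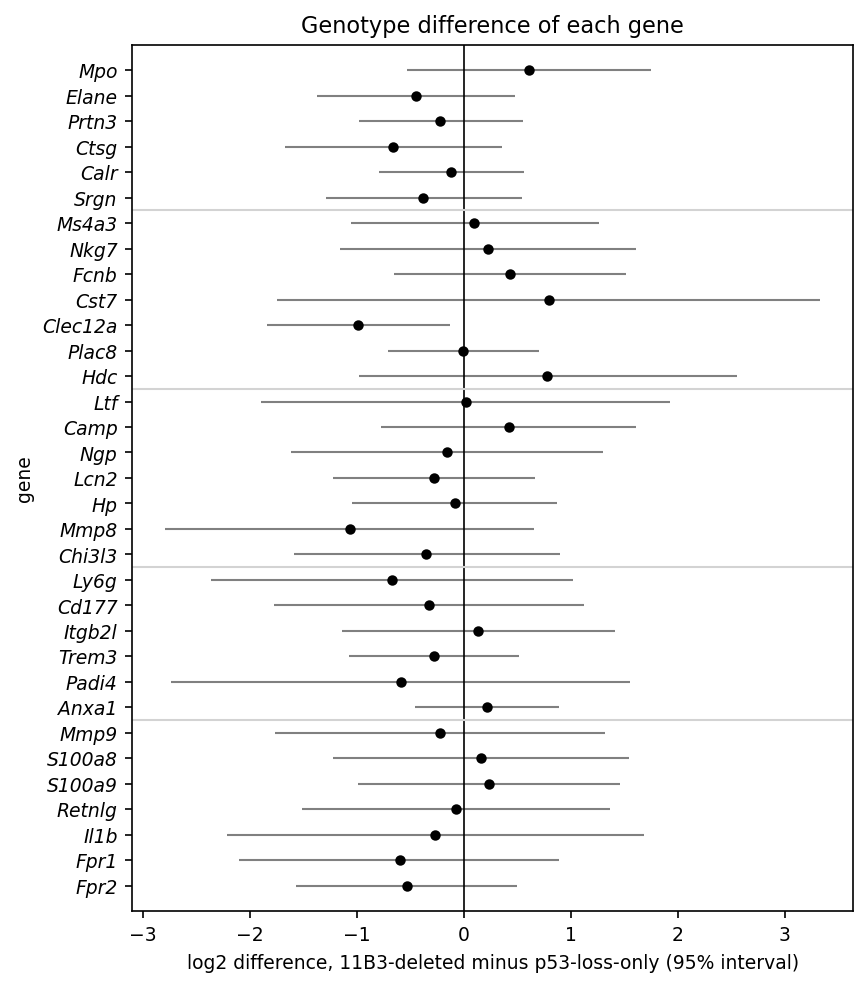
Log2 difference of each of the 33 genes, 11B3-deleted minus p53-loss-only, as a point with its 95% limma interval (x axis), by gene in the order of the 5 classes (y axis, grey lines between classes; n = 4 libraries per group). The interval of Clec12a (-1.84 to -0.13) is the one that leaves out 0, before any adjustment for the number of genes tested.

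The spread among leukaemias of the same genotype was wide. The median gene of the 33 varied 5.32-fold from its lowest to its highest library, from 2.34-fold for Calr to 48.6-fold for Cst7, against a median of 2.45-fold over all tested genes. In 27 of the 33 the range was over 3-fold and in 9 it was over 10-fold. Within a group the median SD was 0.89 on the log2 scale, a value that 81.7% of all tested genes lay below, and it was 0.75 for the early and 1.06 for the later genes. The genotype accounted for a median of 5.14% of the variance of the 33 genes, against 7.58% for all tested genes.

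**Figure D2:**
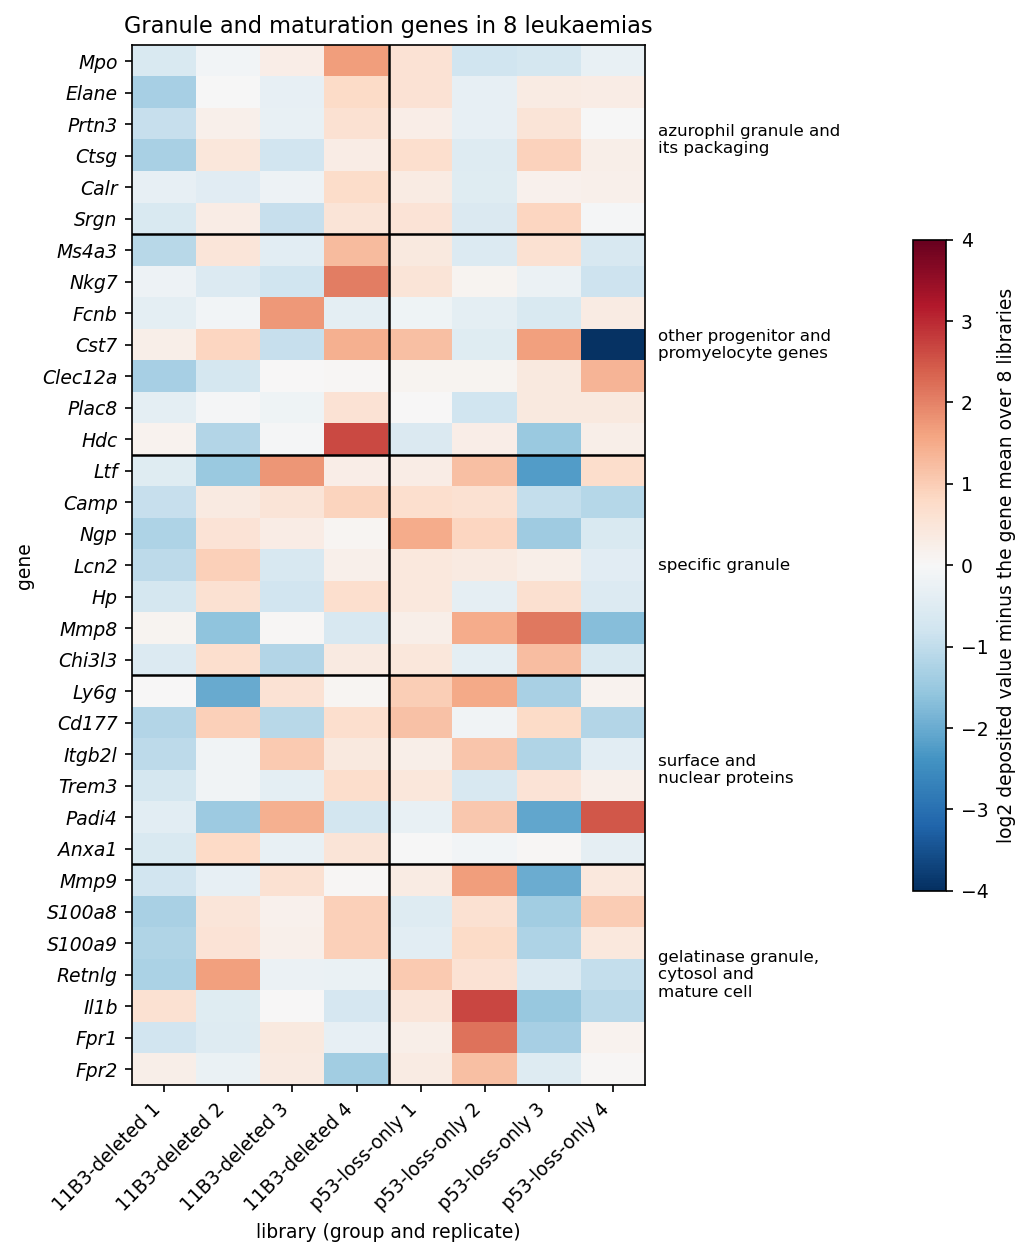
Each cell is 1 gene (y axis, 33 genes in 5 classes) in 1 library (x axis, 4 per group, the vertical line between the groups), coloured by its log2 deposited value minus the gene's mean over the 8 libraries. The early genes are reddest in 11B3-deleted replicate 4 and the gelatinase and mature cell genes in p53-loss-only replicate 2, while 11B3-deleted replicate 1 is blue through most genes.

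The azurophil granule class holds Mpo, Elane, Prtn3 and Ctsg with Calr and Srgn, which help fold and store them. Of its 6 genes 5 had a lower and 1 a higher mean in the 11B3-deleted group, and none passed the test. Mpo, which encodes myeloperoxidase, the enzyme that makes hypochlorous acid, read 86051, 119873, 157150 and 414041 across 11B3-deleted replicates 1 to 4, against 195095, 75329, 79222 and 106484 across p53-loss-only replicates 1 to 4. The 414041 of 11B3-deleted replicate 4 was the highest level by a wide margin, and the other 3 libraries of its group lay within the range of the p53-loss-only group. The group means were 194279 ± 149358 and 114033 ± 55791 (SD, n = 4 each), and the log2 difference was 0.61 (SE 0.50, limma adjusted p = 0.996). Without 11B3-deleted replicate 4 it was 0.15.

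The 3 serine proteases that share the azurophil granule with Mpo were lower on average in the 11B3-deleted group. Elane, neutrophil elastase, read 17364, 42830, 34720 and 73238 across 11B3-deleted replicates 1 to 4, against 64384, 34418, 54888 and 53746 across p53-loss-only replicates 1 to 4, so the 11B3-deleted group held both the lowest and the highest value. Its neighbour Prtn3, proteinase 3, was at 19683, 43070, 30306 and 57365 against 45061, 29711, 54138 and 37146, with the same 2 libraries at the ends. Ctsg, cathepsin G, was at 10540, 35300, 15266 and 31764 against 41651, 17951, 49497 and 30239. Its lowest level was in 11B3-deleted replicate 1 and its highest in p53-loss-only replicate 3, and the groups overlapped. The log2 differences were -0.45 for Elane (SE 0.41), -0.22 for Prtn3 (SE 0.34) and -0.66 for Ctsg (SE 0.45), each with a limma adjusted p of 0.996.

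Calr, the chaperone calreticulin, which takes part in folding myeloperoxidase, had the narrowest range of the 33. It ran from 30447 in p53-loss-only replicate 2 to 71140 in 11B3-deleted replicate 4, the library with the most Mpo, and the log2 difference between the groups was -0.12 (SE 0.30). Srgn, the core protein of the serglycin proteoglycan that holds proteases in granules, ran from 7325 in 11B3-deleted replicate 3 to 25383 in p53-loss-only replicate 3 (log2 difference -0.38, SE 0.40).

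The other early genes belong to progenitors and promyelocytes without being azurophil contents, and 5 of these 7 had a higher mean in the 11B3-deleted group. Clec12a, an inhibitory lectin receptor of myeloid cells, went the other way. It read 7905, 12053, 20171 and 20179 across 11B3-deleted replicates 1 to 4, against 21288, 21452, 26018 and 50129 across p53-loss-only replicates 1 to 4. Every 11B3-deleted value lay below every p53-loss-only value, but the gap between 20179 and 21288 was small beside the range within each group. The means were 15077 ± 6125 and 29722 ± 13780 (SD, n = 4 each), and on the log2 scale the 11B3-deleted group stood at 50.5% of the other, a difference of -0.99 (SE 0.38, unadjusted p = 0.0281, limma adjusted p = 0.996). Leaving out 1 library at a time gave differences of -1.16 to -0.70.

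Ms4a3, a membrane protein of granulocyte and monocyte progenitors, read 2028, 6107, 3240 and 10581 across 11B3-deleted replicates 1 to 4, against 5752, 2974, 6661 and 2810 across p53-loss-only replicates 1 to 4. The 2 ends of its range were both 11B3-deleted, replicates 1 and 4 (log2 difference 0.10, SE 0.51). Fcnb, the lectin ficolin-B, was at 383.7, 468, 1669 and 378.2 against 444.8, 379, 326.7 and 624, so that 1 library, 11B3-deleted replicate 3, stood apart and the others overlapped. Its log2 difference of 0.43 (SE 0.48) became -0.08 without that library. Hdc, the enzyme that makes histamine, was at 90.8, 36.5, 78.5 and 513.1 against 54.4, 99.2, 29.5 and 95.8.

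The high Hdc value was again in 11B3-deleted replicate 4, and the log2 difference of 0.78 (SE 0.78) was 0.03 without it. Hdc is also made by mast cells and basophils. Of the 7 listed markers of eosinophils, basophils and mast cells, 5 were highest in the same library, the mast cell protease gene Cpa3 at 2765 (11.7 to 511.8 in the other 7), the eosinophil peroxidase gene Epx at 545.1 (1 to 37.2), Ms4a2 at 360.5 (49.6 to 144.6), Fcer1a at 12.5 and Ear1 at 2.8, the last under 3 reads. The other two were not: Mcpt8 was at 889.4 there and 1681 in p53-loss-only replicate 3, and Prg2 at 409.3 there and 4828 in 11B3-deleted replicate 3. The summed list was at 4977 there, 5148 in 11B3-deleted replicate 3 and 429.6 to 2310 in the other 6, and its part in the Hdc level was not tested. Nkg7, a granule membrane protein that cytotoxic lymphocytes also make, was at 1004 there and at 138.4 to 346.7 in the other 7 libraries. The summed T cell markers of that library, 727.8, were second highest, with 190.9 to 762.4 in the other 7. Of these markers Cd3e (85.3) and Cd3g (108.4) were highest there, while Cd3d, Cd4, Cd8a and Lck were highest elsewhere. The part of lymphocytes in the Nkg7 level was not tested.

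Cst7, the protease inhibitor cystatin F, had the widest range of all 33, from 58.5 in p53-loss-only replicate 4 to 2842 in p53-loss-only replicate 3. Its log2 difference of 0.80 (SE 1.12, 95% interval -1.74 to 3.33) was -0.01 in edgeR and -0.39 without p53-loss-only replicate 4. Plac8, a small cysteine-rich protein of myeloid cells, was between 16675 and 43370 and gave a log2 difference of -0.01 (SE 0.31, 95% interval -0.71 to 0.70).

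Specific granule genes, made after the azurophil proteins, numbered 7, of which 5 had a lower and 2 a higher mean in the 11B3-deleted group. None passed the test. Ltf, lactoferrin, which binds iron, read 3358, 1669, 15850 and 5661 across 11B3-deleted replicates 1 to 4, against 5749, 10932, 996.6 and 7597 across p53-loss-only replicates 1 to 4. The lowest and highest levels, 15.9-fold apart, came from p53-loss-only replicate 3 and 11B3-deleted replicate 3, and the group means were almost equal at 6634 ± 6358 and 6319 ± 4146 (SD, n = 4 each). The log2 difference was 0.02, with a 95% interval from -1.89 to 1.93, so a 2-fold difference in either direction is within the error.

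Camp, the cathelicidin antimicrobial peptide, read 2291, 5579, 6301 and 8192 across 11B3-deleted replicates 1 to 4, against 6956, 6620, 2250 and 1976 across p53-loss-only replicates 1 to 4. Ngp, a granule protein of the cystatin superfamily, was at 9087, 30909, 26282 and 22446 against 59741, 38750, 7900 and 14076. For both genes, 11B3-deleted replicate 1 and p53-loss-only replicates 3 and 4 were the 3 lowest libraries, and the groups overlapped (log2 differences 0.42, SE 0.53, and -0.16, SE 0.64). Lcn2, a lipocalin that captures bacterial siderophores, was at 12548, 50336, 16805 and 29882 against 34906, 33633, 30720 and 19047, with both ends of the range in the 11B3-deleted group (log2 difference -0.28, SE 0.42).

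Mmp8, the neutrophil collagenase, did not follow the lactoferrin pattern. It read 5198, 1573, 4992 and 3114 across 11B3-deleted replicates 1 to 4, against 5759, 13427, 20781 and 1500 across p53-loss-only replicates 1 to 4. Its highest level was in p53-loss-only replicate 3, the library where Ltf, Ngp and Mmp9 were lowest, and its lowest in p53-loss-only replicate 4. The means of 3719 ± 1710 and 10367 ± 8518 (SD, n = 4 each) gave the most negative log2 difference of the 33, -1.06 (SE 0.76, 95% interval -2.79 to 0.66, limma adjusted p = 0.996, DESeq2 adjusted p = 0.721), and -0.54 without p53-loss-only replicate 3.

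Chi3l3 was the most abundant of the 33 per kilobase of exon in 8 of 8 libraries, with a mean deposited value per kilobase of 361159 against 74665 for S100a9, 48892 for S100a8, 47711 for Elane and 45022 for Mpo. Among all genes of a library, by deposited value without regard to length, it ranked first in 5 of 8 libraries and never below rank 3. It read 348846, 824256, 226323 and 663670 across 11B3-deleted replicates 1 to 4, against 705604, 391266, 1217227 and 338104 across p53-loss-only replicates 1 to 4, overlapping between groups (log2 difference -0.35, SE 0.55). Its near copy Chi3l4 was at 36.9 to 311.3, and the sources used here do not say how reads shared by such copies were assigned. Hp, haptoglobin, which binds free haemoglobin, was between 23593 and 64705 (log2 difference -0.08, SE 0.42).

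Surface and nuclear proteins of maturing neutrophils numbered 6, of which 4 were lower and 2 higher in the 11B3-deleted group. Ly6g, the antigen used to sort mouse neutrophils, read 21.5, 5.3, 32 and 22.3 across 11B3-deleted replicates 1 to 4, against 41.8, 61.5, 8.7 and 23.4 across p53-loss-only replicates 1 to 4. Per kilobase of exon its mean, 27.7, ranked 31 of the 33, above Il1b and Hdc. Its lowest values were in 11B3-deleted replicate 2 and p53-loss-only replicate 3, close to the 3.663 to 4.29 that 3 reads are worth, and the log2 difference was -0.67 (SE 0.75). The related Ly6c2, which monocytes also make, was at 18836 to 65403, and reads shared within the Ly6 family carry the same doubt. Cd177, a surface protein that carries proteinase 3, was at 8059, 34915, 8262 and 28800 against 40768, 16454, 30841 and 7962. Each group held low libraries, down to 8059 and 7962, and high ones, up to 34915 and 40768 (log2 difference -0.32, SE 0.64).

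Padi4, the enzyme that citrullinates histones when neutrophils release chromatin, varied 23.6-fold, from 474.7 in p53-loss-only replicate 3 to 11201 in p53-loss-only replicate 4, with a log2 difference of -0.59 (SE 0.95). Itgb2l, a relative of the integrin beta 2 chain, was between 285 and 1426 (log2 difference 0.13, SE 0.56), again lowest in p53-loss-only replicate 3. Trem3, an activating receptor, varied 2.65-fold (log2 difference -0.28, SE 0.35). Anxa1, annexin A1, which limits neutrophil migration, varied 2.64-fold and was close to even among the p53-loss-only libraries, at 6581 ± 748 (SD, n = 4), against 8213 ± 3594 (SD, n = 4) in the 11B3-deleted group (log2 difference 0.22, SE 0.30).

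The latest genes, for gelatinase granules, cytosol and the mature cell, numbered 7, with 5 lower and 2 higher in the 11B3-deleted group. S100a8 read 11641, 39924, 32441 and 55594 across 11B3-deleted replicates 1 to 4, against 19894, 43369, 10858 and 57738 across p53-loss-only replicates 1 to 4. S100a9, its partner in the calprotectin complex, was at 14897, 49264, 38798 and 65653 against 25164, 58129, 14535 and 45368. For both, 11B3-deleted replicate 1 and p53-loss-only replicate 3 were the 2 lowest libraries, 1 from each genotype, and the log2 differences were 0.16 (SE 0.61) and 0.24 (SE 0.54).

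Mmp9, the gelatinase of the last granules to form, read 640.5, 875.9, 1684 and 1135 across 11B3-deleted replicates 1 to 4, against 1375, 3534, 277.3 and 1469 across p53-loss-only replicates 1 to 4. Both ends of its range were p53-loss-only, replicate 3 below and replicate 2 above (log2 difference -0.22, SE 0.68). Retnlg, a resistin-like protein of mature neutrophils, was at 1217, 9112, 2483 and 2441 against 6082, 4417, 2005 and 1517. Its log2 difference was -0.07 (SE 0.64) in limma and 0.11 in edgeR.

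The remaining 3 genes of this class had mean deposited values per kilobase of exon of 25.2 for Il1b, 186 for Fpr1 and 782 for Fpr2, against 6169 for Retnlg and 74665 for S100a9. Il1b, the cytokine interleukin 1 beta, was at 201 in p53-loss-only replicate 2 and at 10.9 to 47.9 in the other 7 libraries. Fpr1, a receptor for bacterial formyl peptides, was at 847.8 in that library and at 73.4 to 242.3 elsewhere, and its neighbour Fpr2 was at 2071 there and 348.9 to 1161 elsewhere. All 3 were highest in the same leukaemia, and their log2 differences were -0.27 (SE 0.86), -0.60 (SE 0.66) and -0.53 (SE 0.46).

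To place each leukaemia on the maturation order, each gene's log2 value was centred on its mean over the 8 libraries, averaged over the early and over the later genes, and the early mean was subtracted from the later mean. The result is a description and carries no test. The order ran from p53-loss-only replicate 2, at 1.18, and 11B3-deleted replicate 3, at 0.36, down to 11B3-deleted replicate 4, at -0.80, and p53-loss-only replicate 3, at -0.83. The 4 libraries between them, 2 of each genotype, lay from -0.04 to 0.06. Both the top pair and the bottom pair hold 1 leukaemia of each genotype. With medians over genes in place of means, p53-loss-only replicate 4 moved from 0.04 to -0.60, and the bottom pair was then p53-loss-only replicates 3 (-1.47) and 4.

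The group means of later minus early were -0.11 ± 0.49 for 11B3-deleted and 0.11 ± 0.82 for p53-loss-only (SD, n = 4 each), a difference of -0.23 that is smaller than either SD. The early level was 0.01 ± 0.66 and -0.01 ± 0.34, and the later level -0.11 ± 0.38 and 0.11 ± 0.63 (SD, n = 4 each). Without p53-loss-only replicate 2 the difference of later minus early was 0.13, without 11B3-deleted replicate 4 it was 0.00, and without p53-loss-only replicate 3 it was -0.54, past the SD of the 11B3-deleted group.

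**Figure D3:**
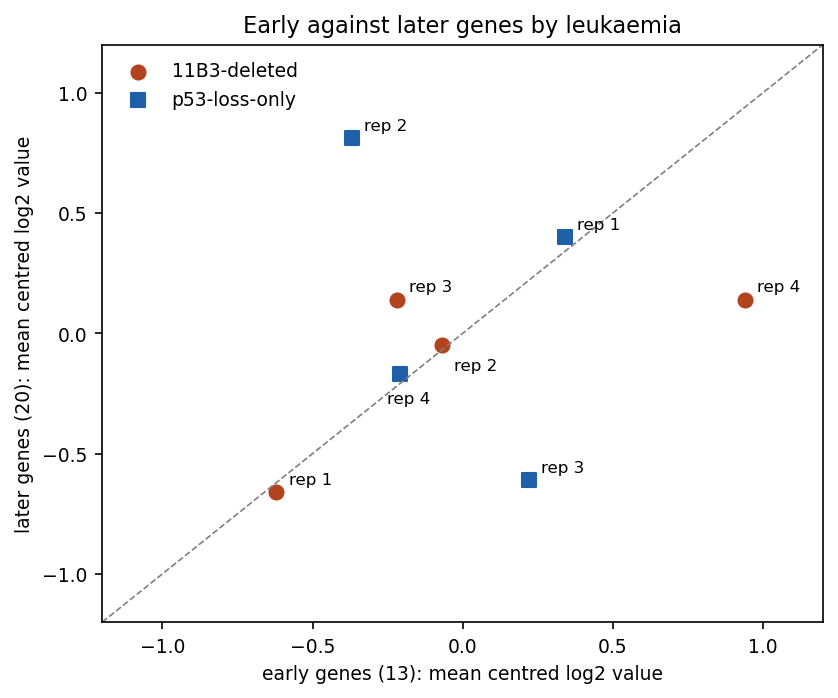
Mean centred log2 value of the 13 early genes (x axis) against that of the 20 later genes (y axis), 1 point per library with its replicate number, circles for 11B3-deleted and squares for p53-loss-only; the dashed line marks equal levels. The groups mix: p53-loss-only replicate 2 lies farthest above the line (1.18), and p53-loss-only replicate 3 (-0.83) and 11B3-deleted replicate 4 (-0.80) farthest below.

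The 2 libraries at the bottom of the order got there by different routes. In 11B3-deleted replicate 4 the early genes were high, at 0.94, and the later genes were near their mean, at 0.14; 8 early genes (Mpo, Elane, Prtn3, Ms4a3, Nkg7, Plac8, Hdc and Calr) and 4 later ones (Camp, S100a9, Trem3 and Hp) had their highest value there. In p53-loss-only replicate 3 the later genes were low, at -0.61, and the early genes above their mean, at 0.22. It held the lowest value of 9 later genes (Ltf, Ngp, S100a8, S100a9, Mmp9, Padi4, Itgb2l, Il1b and Fpr1) and of the early genes Fcnb and Hdc, and at the same time the highest value of Ctsg, Cst7, Srgn, Mmp8 and Chi3l3.

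The other progenitor class and the surface and nuclear class were set by role and are not steps of the granule order. In p53-loss-only replicate 3 the specific granule mean took in Chi3l3 and Mmp8 at their highest and Ltf and Ngp at their lowest. The class means of that library went down in the order listed here. They were 0.35 for azurophil, 0.10 for other progenitor, -0.06 for specific granule, -0.54 for surface and nuclear and -1.22 for gelatinase and mature cell genes. In p53-loss-only replicate 2 the same means were -0.51, -0.24, 0.54, 0.47 and 1.39, so these 2 leukaemias of 1 genotype were at opposite ends. The latter library had the highest value of Mmp9, Ly6g, Itgb2l, Il1b, Fpr1 and Fpr2 and the lowest of Mpo, Plac8 and Calr. The former had the highest summed monocyte and macrophage markers (244906, against 87538 to 171915 in the other 7; all 10 markers were detected) and the lowest summed erythroid markers. Of that sum F13a1 gave 175069, while the macrophage genes Mrc1 (74.5), C1qa (113.9) and C1qb (215.9) were each second lowest of the 8 in that library. The part of these cells in the order was not tested.

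In 11B3-deleted replicate 1 early and later genes were both low, at -0.62 and -0.66, with 9 lowest values (Elane, Prtn3, Ctsg, Ms4a3, Clec12a, Lcn2, Retnlg, Trem3 and Anxa1) and 0 highest. The erythroid markers Car1, Epor, Klf1 and Tfrc were highest in this library, with Car1 at 118944 (87.6 to 23898 in the others). The globin genes and Alas2 were highest in p53-loss-only replicate 2 instead, with Hbb-b1 at 2636 here and 6528 there, Hba-a1 at 1497 and 4710, Hba-a2 at 111.3 and 750.5, and Alas2 at 508.7 and 1462. The part of erythroid cells in the low levels was not tested. In p53-loss-only replicate 1 both were high, at 0.34 and 0.40, with Ngp and Cd177 at their highest and 0 genes at their lowest. The remaining libraries stood nearer to their means: 11B3-deleted replicate 2 (early -0.07, later -0.05) had the highest Lcn2, Retnlg and Anxa1, 11B3-deleted replicate 3 (-0.22 and 0.14) the highest Fcnb and Ltf, and p53-loss-only replicate 4 (-0.21 and -0.17) the highest Clec12a, S100a8 and Padi4.

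The genes took up a sizeable part of each leukaemia's reads, 2.06% to 5.41% in the 11B3-deleted and 2.86% to 5.24% in the p53-loss-only libraries. The early genes held 0.655%, 1.03%, 1.12% and 2.35% of reads in 11B3-deleted replicates 1 to 4 and 1.48%, 0.809%, 1.12% and 1.18% in p53-loss-only replicates 1 to 4, group means of 1.29% ± 0.736 and 1.15% ± 0.275 (SD, n = 4 each). The later genes held 1.41%, 3.42%, 1.41% and 3.05% against 3.03%, 2.26%, 4.12% and 1.68%, group means of 2.32% ± 1.06 and 2.77% ± 1.05 (SD, n = 4 each). Neither share differed between the groups by more than its spread.

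Chi3l3 alone made up most of the later share, with 0.76% to 2.50% of reads in the 11B3-deleted and 1.04% to 3.54% in the p53-loss-only libraries. The other 19 later genes together held 0.713% ± 0.295 and 0.749% ± 0.171 (SD, n = 4 each). In p53-loss-only replicate 3 the share of the later genes was the highest of the 8 libraries, 4.12%, and without Chi3l3 it was 0.574%, the second lowest, so a sum of reads and a mean over genes place this leukaemia at opposite ends. The same library had the highest summed monocyte and macrophage markers, 244906, and the part of such cells in the Chi3l3 share was not tested. The order by mean log2 level had the same 2 libraries at the top and the same library at the bottom without Chi3l3.

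**Figure D4:**
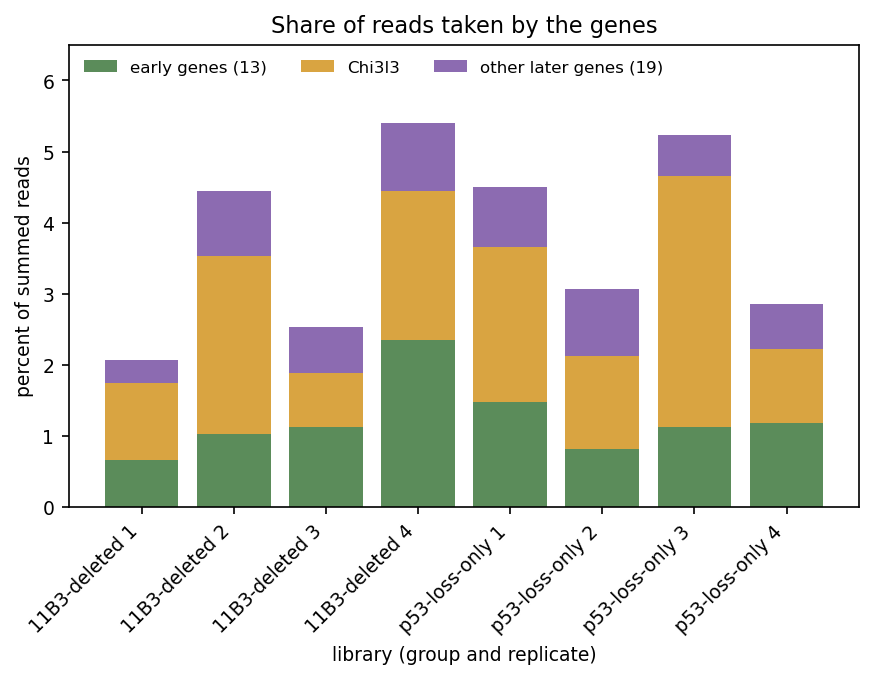
Percent of summed reads (y axis) taken by the 13 early genes, by Chi3l3 and by the other 19 later genes, stacked, in each library (x axis). The whole bars run from 2.06% to 5.41%, and the Chi3l3 segment, at 3.54%, makes up most of the bar of p53-loss-only replicate 3.

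Ratios within a library show how closely pairs of genes kept step. S100a8 over S100a9, neighbours on chromosome 3 with 0 coding genes between them, was between 0.746 and 0.847 in 7 libraries and 1.27 in p53-loss-only replicate 4. Elane over Prtn3, neighbours on chromosome 10, ran from 0.882 to 1.45. The neighbours on chromosome 17, Fpr1 over Fpr2, varied more, from 0.104 to 0.423 or 4.09-fold. Chi3l3 over Ctsg, a specific granule gene over an azurophil gene on another chromosome, varied 2.96-fold, from 11.2 to 33.1, although Chi3l3 itself varied 5.38-fold and Ctsg 4.7-fold.

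Other pairs came apart, including pairs from 1 granule class. Ltf over Ngp, both specific granule genes on chromosome 9, ran from 0.054 in 11B3-deleted replicate 2 to 0.603 in 11B3-deleted replicate 3, 11.2-fold. Chi3l3 over Ltf ran from 14.3 in 11B3-deleted replicate 3 to 1223 in p53-loss-only replicate 3, 85.6-fold, and Mmp8 over Ltf from 0.197 in p53-loss-only replicate 4 to 20.9 in p53-loss-only replicate 3, 106-fold. Mpo over Ctsg, both azurophil genes, read 8.16, 3.4, 10.3 and 13 across 11B3-deleted replicates 1 to 4, against 4.68, 4.2, 1.6 and 3.52 across p53-loss-only replicates 1 to 4. For that ratio 3 of the 4 11B3-deleted libraries lay above all p53-loss-only libraries and replicate 2 lay below 3 of them. The pairs were chosen after their values were seen, so these ranges are descriptions.

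**Figure D5:**
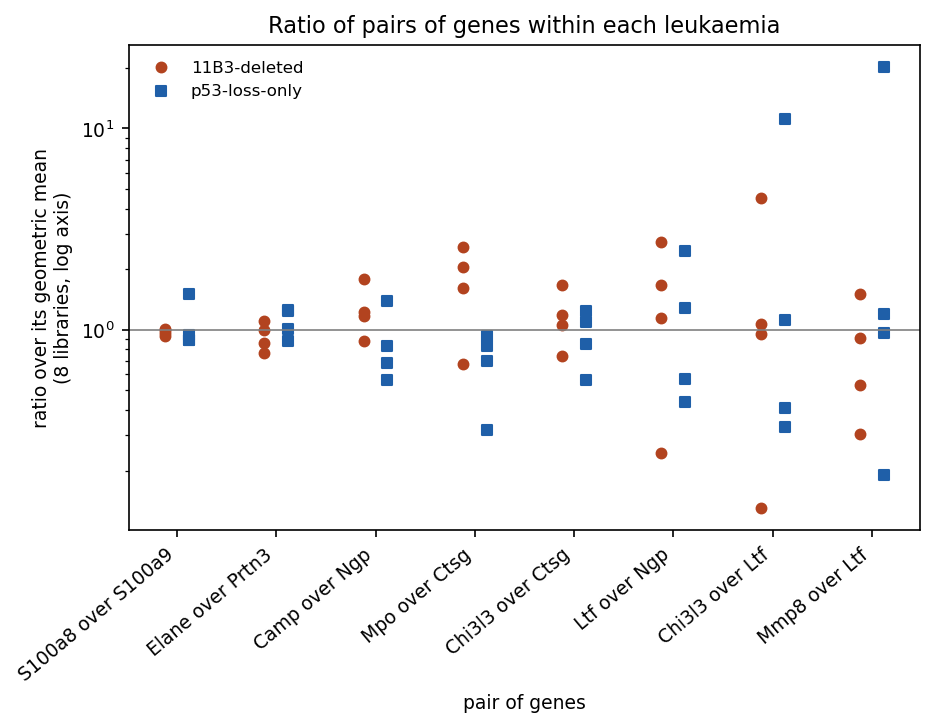
Ratio of 8 pairs of genes (x axis) in each library, divided by its geometric mean over the 8 libraries (y axis, log scale), circles for 11B3-deleted and squares for p53-loss-only. The points of S100a8 over S100a9 span 1.71-fold and those of Mmp8 over Ltf 106-fold.

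A further 39 genes of neutrophil granules, oxidase, receptors and maturation were looked up, and 38 were tested; Bpi, a bactericidal granule protein, was at 1 to 4.2 and was not. With limma 0 of the 38 passed the test (0.0136% of all tested genes), and 0 had an unadjusted p under 0.05 with limma, edgeR or DESeq2. The mean was lower in the 11B3-deleted group for 29 and higher for 9, where 48.4% of all tested genes were lower, with a median log2 difference of -0.27 against 0.01. The groups overlapped for all 38, where 2.15% of all tested genes do not overlap. The 4 with the smallest p were Gstm1 and Mgst1, which conjugate glutathione, Lyz2, the myeloid lysozyme, and Itgam, the CD11b chain.

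Gstm1 read 3300, 4244, 2436 and 11242 across 11B3-deleted replicates 1 to 4, against 8070, 5517, 14227 and 10165 across p53-loss-only replicates 1 to 4 (log2 difference -1.02, SE 0.47, limma adjusted p = 0.996). In Gstm1 11B3-deleted replicate 4 stood within the other group and the remaining 3 libraries below all of it. Lyz2 was at 103707 to 270016 against 182156 to 274936 (log2 difference -0.60, SE 0.32), Mgst1 at 3469 to 6905 against 6223 to 8547 (-0.44, SE 0.25) and Itgam at 4275 to 24281 against 10614 to 23980 (-0.69, SE 0.49), each with a limma adjusted p of 0.996. In all 4 genes 11B3-deleted replicate 1 or replicate 3 held the lowest value.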

How the data were processed

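Total RNA of 8 leukaemias was sequenced, and groups follow the sample titles. STAR, HTSeq, DESeq and the build mm9 are named in the submitters' processing notes, without versions or roles. Strand use was not stated in the sources used here. Each deposited signal value equals 1 plus a whole number of reads divided by a size factor fixed within a library, and subtracting 1 gave whole reads for 100% of values within 0.02. Genes at 10 or more in at least 4 libraries (14679) were tested on log2 deposited values by limma 3.58.1 with its trend option, group as the only term, two-sided, with Benjamini-Hochberg adjustment at 0.05. The deposited 1 is the pseudocount, so folds of scarce genes are understated. edgeR 4.0.16 and DESeq2 1.42.0 (R 4.3.3) on recovered reads, TMM rescaling, a constant of 5, 2 other filters, a replicate block, and each library left out were alternatives; leaving out Chi3l3 was added after seeing the data. The fits were tested on simulated data, with the changed genes drawn at random from all tested genes above a set mean level. The 33 genes varied more within a group (median SD 0.89 on the log2 scale, against 0.44 for all tested genes). The share called among genes with their spread was not simulated separately. With the spread seen between these libraries, limma called 16% of genes given a log2 difference of -1 and 14% at 1. It called 58% at -2 and 58% at 2. At -1 and 1, edgeR called 14% and 10%, and DESeq2 42% and 32%. Of the 14267 genes given a log2 difference of 0, limma called 5, edgeR 4 and DESeq2 58 (0.035%, 0.028% and 0.407%). Symbols were matched as deposited, and of the 39 further genes 3 were matched by identifier. Lengths are merged exons of GENCODE M21. Libraries of a group differed beyond sampling noise in every pair (lowest chi-square over its degrees of freedom 86.8). The members, classes and lists were chosen with earlier results of these data known. All 33 genes are named, 8 values are given for 18 chosen by role and for those among the 3 smallest p per direction, and of the further genes the 4 smallest p are named; other names were chosen after values were seen.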

Additional observations from a re-analysis of the deposited data

Results flagged for a closer look

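In each group of 4 libraries the gap between an extreme library and its nearest neighbour was compared with the range of the group, using Dixon's 95% critical value for 4 samples. Deposited values were used here, not the log2 values of the tests. Of 76 groups checked, 7 held a library past the critical value, and each of the 7 stood above the rest of its group. The nominal rate of about 5%, or 1 in 20, assumes normally distributed values. The 7 can therefore not be set against that rate on this scale. Of the 7, 3 were in 11B3-deleted replicate 4, with Nkg7 at 1004 (gap over range 0.918), Hdc at 513.1 (0.886) and Calr at 71140 (0.856). In 11B3-deleted replicate 3, Fcnb stood at 1669 (0.93) and Padi4 at 5420 (0.839), both above the rest of the group. In 11B3-deleted replicate 2, Retnlg stood at 9112 (0.84). The p53-loss-only group had 1, Clec12a at 50129 in replicate 4 (0.836). Without that library the log2 difference of Clec12a was -0.70, against -0.99 with it.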

How the results depend on the processing

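Of the 33 genes, 0 were called under each of the 15 alternatives, and so were 0 of the further neutrophil genes; the smallest adjusted p of any of the 33 was 0.599 (Clec12a in DESeq2), and 0.613 in limma with a library left out. Over all tested genes limma called 2, edgeR 1, DESeq2 58, limma with a constant of 5 called 1, and leaving out a library 0 or 1. With the replicate number as a block, 0 genes were called. In this balanced design a block cannot change a log2 difference, so that of Clec12a stayed at -0.99. Same-numbered libraries did not deviate together (correlations -0.03, -0.22, -0.41 and -0.24, and 0 of 4 libraries correlated best with its own number). The labels do not say whether the numbers pair the samples, and 4 such correlations cannot exclude it. The block and the 2 other filters leave every log2 difference as it is, so their values, counted in the 555 below, could not change sign. For 37 named genes, 47 of 555 alternative values changed sign, 44 of them with a library left out, and for 15 genes none did. In the other 3, Cst7 became -0.01 in edgeR, and Retnlg 0.11 in edgeR and 0.12 in DESeq2. With each library left out in turn the log2 difference ran as follows: Prtn3 -0.46 to 0.06, Ms4a3 -0.31 to 0.49, Nkg7 -0.42 to 0.53, Fcnb -0.08 to 0.64, Cst7 -0.39 to 1.48, Plac8 -0.27 to 0.12, Calr -0.38 to 0.01, Ltf -0.72 to 0.52, Ngp -0.66 to 0.31, S100a8 -0.28 to 0.62, S100a9 -0.13 to 0.68, Lcn2 -0.64 to 0.03, Mmp9 -0.92 to 0.30, Retnlg -0.63 to 0.34, Cd177 -0.77 to 0.01, Padi4 -1.38 to 0.14, Chi3l3 -0.63 to 0.01, Itgb2l -0.24 to 0.53, Anxa1 -0.02 to 0.45, Hp -0.33 to 0.16, Il1b -0.82 to 0.58 and Fpr1 -1.15 to 0.03. The cause was not tested. Later minus early differed between groups by -0.54 to 0.13 with a library left out and by 0.20 with medians over genes; the -0.54, without p53-loss-only replicate 3, is larger than the SD of the 11B3-deleted libraries, 0.49. The share of reads of the later genes differed by -0.81 to 0.00 percentage points and that of the early genes by -0.21 to 0.35. On the maturation order p53-loss-only replicate 2 was highest and 11B3-deleted replicate 3 second under all 5 alternatives, while specific minus azurophil put p53-loss-only replicate 4 lowest, at -0.69, and medians over genes put it second lowest, at -0.60. Among the 5, the order over genes without the filter could not differ from the main order, since all 33 passed the filter. Depth limits Ly6g and Il1b, whose lowest libraries, at 5.3 and 10.9, hold few reads.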

Other observations

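The genes of this kind with the widest spread among the further 39 were chosen after their values were seen. Stfa1, a stefin that inhibits cysteine proteases and is made by mouse neutrophils, read 292.9, 2158, 4166 and 27.6 across 11B3-deleted replicates 1 to 4, against 330.2, 7340, 70.1 and 1122 across p53-loss-only replicates 1 to 4. Its relatives Stfa2, Stfa3, Stfa2l1 and BC100530 were likewise lowest in 11B3-deleted replicate 4, at 9.9 to 12.5, and reads shared among these near copies cannot be assigned with certainty. Stfa1 and its relatives were highest in 11B3-deleted replicate 3 or p53-loss-only replicate 2, the 2 libraries at the top of the maturation order, and lowest in a library from its bottom. Chi3l1, another chitinase-like gene, was at 842.3 to 917.9 in 11B3-deleted replicate 3 and p53-loss-only replicates 2 and 4 and at 5.9 to 70.3 in the other 5, while Chi3l3 was among its 4 lowest values in those 3. Lyz1, a lysozyme close to Lyz2, was at 13225 in p53-loss-only replicate 1 and at 69.8 to 1332 in the other 7. Olfm4, olfactomedin 4 of specific granules, ran from 390.5 in 11B3-deleted replicate 1 to 13326 in 11B3-deleted replicate 3.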
